A study of Mus musculus with 10 samples.

Results

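The 30 genes described here are liver genes read in libraries of sorted blood stem cells: 27 code for proteins that hepatoblasts and hepatocytes secrete into plasma, and 3 (Fabp1, Cps1 and Hnf4a) code for proteins that stay inside those cells. They were taken as a list of names, chosen with earlier results of these data known, and all 30 were among the 17404 genes of the count table. The libraries are bulk RNA-seq of long-term hematopoietic stem cells (LT-HSCs) sorted from fetal livers at embryonic stage E14.5. The KO group (n = 6) carried Tnfrsf11aCre and Spi1f/f, in which Cre is driven from the Tnfrsf11a locus of macrophage precursors and removes floxed Spi1, and the WT group (n = 4) was Tnfrsf11a+/+ with the same floxed Spi1 alleles. Thus all embryos carried Spi1f/f and the groups differed in Cre. Libraries are named KO1 to KO6 and WT1 to WT4, and these numbers only name them. The comparison asked whether LT-HSCs changed when fetal macrophages were depleted. The controls were littermates of KO embryos, but no source used here says which libraries share a litter, so p-values measure the spread between these libraries.

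Hepatoblasts are the fetal progenitors of hepatocytes and bile duct cells, and they form the tissue in which fetal blood stem cells expand. They make most proteins of fetal plasma: carriers such as albumin and alpha-fetoprotein, the apolipoproteins of lipoprotein particles, the precursors of the clotting cascade, and protease inhibitors. Transcription of these genes is driven by a small set of liver-enriched factors of the HNF1, HNF4, FOXA and C/EBP families. Since these are defining genes of another cell type of the same organ, their levels are given library by library.

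Between 5315435 and 30941726 counts were assigned to genes in KO and between 7633446 and 18256010 in WT, so that 3 counts correspond to 0.0928 to 0.474 CPM (counts scaled to a common library size of 1000000). All CPM values are scaled by TMM factors. No pair of libraries held identical counts. LT-HSC genes were present: the summed level of 14 of them, among which Esam, Tek and Cd34 had the highest mean CPM, was 1887 to 2886 CPM in KO and 939.6 to 1770 CPM in WT. The 4 that passed an adjusted p of 0.1 (edgeR's quasi-likelihood test, Benjamini-Hochberg) were higher in KO, namely Mecom, Hlf, Hoxa9 and Cd34, where 1.32% of all genes tested were called higher. No gene was called higher, these 4 included, without KO1, KO2, KO5, KO6 or WT1. The summed level of the 14 genes follows its most abundant members. In KO3, for instance, Esam was at 691 CPM, and Hlf, Hoxa9 and Slamf1 were at 13.7, 9.42 and 9.86 CPM. Whether these genes were read from LT-HSCs alone was not tested, so the sum does not measure LT-HSC content. Spi1 ranged from 9.10 to 101 CPM in KO and from 6.22 to 50.1 CPM in WT (log2 fold change 1.31, adjusted p = 0.337 by edgeR), and was not called lower in LT-HSCs of KO embryos, which are not the cells that the Cre line was used to target.

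Of the 22 genes with a promoter in the RefSeq table (GRCm38.p6, 250 bases before to 50 after the start), 9 held the HNF1 half-site GTTAAT on either strand (40.9%), against 8.24% of 27025 genes with a promoter of that length. The C/EBP-type motif TTGCNNAA was found in 12 of the 22 (54.5%, against 12.2% of all promoters), and the FOXA-type motif TGTTTGC in 7 (31.8%, against 5.76%). The motif TATAAA was in 7 (31.8%, against 15.7%). All motifs were searched on both strands, and TGTTTGC and TTGCNNAA can overlap in the letters TTGC. The full HNF1 palindrome (the half-site, any base, then the half-site reversed and complemented) and the HNF4-type motif CAAAGTCCA were found in none of the 22. A match is a run of letters, not a bound site. 4 promoters with the half-site are shown because their genes define the pattern below. Alb and Afp kept a near constant ratio to each other. The ratio of Fgb to Alb varied more, from 0.00743 in KO1 to 0.212 in WT1. Vtn departed from Alb and Afp in WT1 and had no count in KO1. The half-site, read as GTTAAT or as its reverse complement ATTAAC, is in capitals, and each sequence is 5′ to 3′ on the strand of its gene.
Alb, chr5:90460620-90460919, plus strand: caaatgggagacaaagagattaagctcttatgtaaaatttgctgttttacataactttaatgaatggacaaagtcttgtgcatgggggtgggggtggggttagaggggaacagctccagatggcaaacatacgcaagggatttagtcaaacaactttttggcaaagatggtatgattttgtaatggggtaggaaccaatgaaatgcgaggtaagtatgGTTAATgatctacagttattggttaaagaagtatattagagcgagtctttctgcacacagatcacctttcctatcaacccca
Afp, chr5:90490464-90490763, plus strand: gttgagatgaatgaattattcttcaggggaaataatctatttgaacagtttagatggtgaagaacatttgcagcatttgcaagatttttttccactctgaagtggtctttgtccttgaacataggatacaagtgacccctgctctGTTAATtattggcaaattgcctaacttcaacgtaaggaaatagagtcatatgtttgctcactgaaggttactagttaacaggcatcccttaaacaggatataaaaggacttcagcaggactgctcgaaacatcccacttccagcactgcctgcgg
Fgb, chr3:83049814-83050113, minus strand: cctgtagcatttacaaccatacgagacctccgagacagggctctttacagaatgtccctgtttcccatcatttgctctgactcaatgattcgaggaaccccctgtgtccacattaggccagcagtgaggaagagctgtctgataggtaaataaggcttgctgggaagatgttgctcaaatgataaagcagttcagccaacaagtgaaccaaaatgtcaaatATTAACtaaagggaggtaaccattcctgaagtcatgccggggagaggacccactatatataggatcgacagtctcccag
Vtn, chr11:78498870-78499169, plus strand: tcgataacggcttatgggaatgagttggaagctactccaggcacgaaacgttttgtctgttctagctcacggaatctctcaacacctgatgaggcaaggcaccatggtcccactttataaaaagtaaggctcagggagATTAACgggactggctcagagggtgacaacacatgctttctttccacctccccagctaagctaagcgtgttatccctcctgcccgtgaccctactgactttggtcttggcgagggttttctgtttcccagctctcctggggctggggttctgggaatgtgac
The half-site began 32 bases before the start in Alb, 105 bases before it in Afp, 29 in Fgb and 112 in Vtn. Alb and Afp are neighbours on chromosome 5, where Gencode places Alb at 90460897 to 90476602 and Afp at 90490737 to 90508907, both on the plus strand. Fga, Fgb and Fgg lie together on chromosome 3, and Apoa1 and Apoc3 on chromosome 9.

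Liver genes were present in every library, and their level differed far more between libraries of 1 genotype than between genotypes. The summed level of the 30 genes was lowest in KO1 with 133 CPM and highest in KO6 with 11594 CPM, an 87.0-fold range. KO2 held 1927 CPM, KO3 661 CPM, KO4 716 CPM and KO5 8648 CPM, whereas WT1 held 554 CPM, WT2 624 CPM, WT3 8170 CPM and WT4 932 CPM. KO5, KO6 and WT3 stood apart: the lowest of them was 4.24-fold above the fourth highest library. In these 3 libraries the summed level was 0.817% to 1.16% of the TMM-scaled library size, and in the other 7 libraries 0.0133% to 0.193%. These are not raw shares of the counts, since TMM factors went from 0.741 in WT3 to 1.19 in KO2. The groups overlapped, with 3947 ± 4908 CPM in KO (SD, n = 6) and 2570 ± 3737 CPM in WT (SD, n = 4). On the log2 scale the mean was 0.25 higher in KO, against an SD of 2.45 in KO and 1.82 in WT. Without KO5, KO6 and WT3 the means were 859 ± 759 CPM in KO (SD, n = 4) and 703 ± 201 CPM in WT (SD, n = 3), and on the log2 scale KO was then 0.22 lower (-0.22). In bulk libraries, fewer cells of a type and less RNA per cell cannot be told apart.

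For 26 of the 29 genes with at least 11 counts (89.7%), KO5, KO6 and WT3 were the 3 highest libraries, which was the case for 2.45% of all 16725 genes tested. These 3 libraries were singled out by the summed level of the same genes, so this count is a description. The exceptions were Apoc3, Vtn and Hnf4a.

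**Figure D1:**
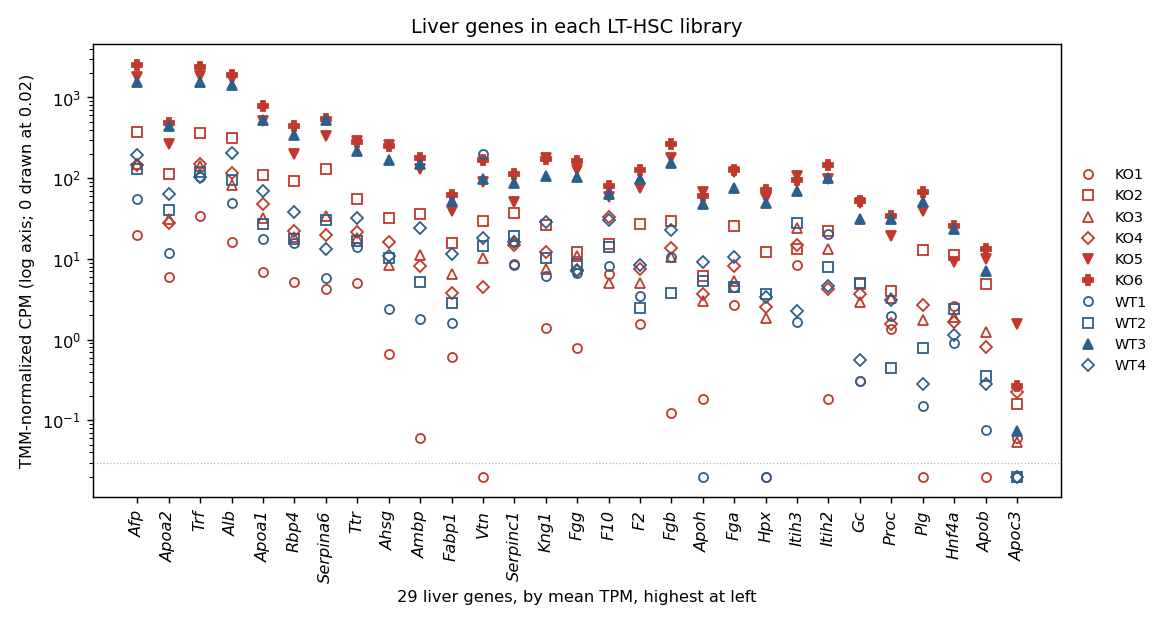
TMM-normalized CPM (log axis) of 29 liver genes in each library, ordered by mean TPM; KO libraries are red, WT libraries blue, and KO5, KO6 and WT3 are filled. The filled symbols lie above the open ones for 26 of the 29 genes, and Vtn in WT1 is the highest open symbol of its column.

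Levels of different genes are compared here as TPM, values scaled for transcript length as well as depth. By mean TPM over the 10 libraries, Afp was highest (305 TPM), followed by Apoa2 (285 TPM), Trf (259 TPM), Alb (249 TPM) and Apoa1 (185 TPM). Rbp4, Serpina6 and Ttr came next with 115, 87.9 and 70.7 TPM. Each of these genes varied between libraries by far more than it differed from its neighbour in this order, for instance from 12.8 to 1128 TPM for Afp and from 9.83 to 824 TPM for Alb. At the other end stood Hnf4a (1.62 TPM), Apob (0.947 TPM) and Apoc3 (0.577 TPM). Cps1, the mitochondrial enzyme that starts the urea cycle, had 4 counts in all libraries together and was not tested.

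Among the plasma carriers, Alb codes for albumin, the main carrier of adult plasma. Its level in KO was 16.4 CPM in the lowest library, 214 CPM at the median and 1882 CPM in the highest. In WT, Alb was at 49.4, 95.03, 1410 and 206 CPM. The groups overlapped, and WT3 lay next to KO5 and KO6. Afp, the carrier that dominates fetal plasma, reached 19.7, 260 and 2555 CPM (lowest, median and highest) in KO. Afp in WT was at 56.0, 129, 1564 and 194 CPM, so WT3 again stood above the other WT libraries. Trf codes for transferrin, which carries iron to erythroblasts and other cells, and reached 33.6, 258 and 2357 CPM in KO. In WT, Trf was at 103, 119, 1568 and 103 CPM. Of the exonic bases of Trf, 63.5% are shared with Gm20425 on the same strand, so that its counts depend on how reads were divided between both annotations.

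Ttr, the carrier of thyroid hormone and of the retinol-binding protein, was at 5.06, 38.7 and 292 CPM (lowest, median and highest) in KO. In WT, Ttr was at 14.0, 16.8, 220 and 31.8 CPM. Rbp4, the retinol carrier itself, was at 5.18, 56.7 and 437 CPM in KO. In WT, Rbp4 was at 15.9, 17.7, 338 and 38.6 CPM. Both genes thus had their highest WT value in WT3, and the groups overlapped. Serpina6, which codes for the glucocorticoid carrier of plasma, was at 4.27, 82.1 and 537 CPM in KO. In WT, Serpina6 was at 5.84, 30.5, 524 and 13.3 CPM, and WT3 was again the highest. The remaining carriers were lower: Ahsg (fetuin-A), Ambp, Gc (the vitamin D carrier) and Hpx (the heme carrier) reached 261, 179, 52.8 and 72.0 CPM in their highest library. Hpx had no count in KO1 and WT1.

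Among the apolipoproteins, Apoa1, the main protein of high-density lipoprotein, was at 6.89, 78.6 and 782 CPM (lowest, median and highest) in KO. Its level in WT was 17.4, 26.7, 532 and 68.8 CPM. Apoa2, the second protein of that particle, was at 5.91, 72.1 and 481 CPM in KO. In WT, Apoa2 was at 11.7, 40.1, 441 and 63.5 CPM. Apoa1 and Apoa2 thus ordered the WT libraries alike, with WT3 first and WT1 last. Apob, the scaffold of very low-density lipoprotein, did not exceed 13.2 CPM, and Apoh reached 68.1 CPM. Apoc3, an inhibitor of lipoprotein lipase, held 62 counts in KO, 50 of them in KO5, and 1 count in WT.

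The 9 clotting genes had their highest level in KO6 or KO5. Fga, Fgb and Fgg code for the chains of fibrinogen, and reached 126, 268 and 165 CPM in KO6, their highest library. F2 (prothrombin) reached 127 CPM, F10 80.5 CPM, Plg (plasminogen) 68.4 CPM, Proc (protein C) 34.2 CPM and Serpinc1 (antithrombin) 113 CPM, also in KO6. Kng1, the precursor of bradykinin, reached 177 CPM in KO5 and has a close paralog, Kng2, with which reads may be shared. In the lowest library, KO1, Fgb had 2 counts and Plg none, whereas F10 was still at 6.58 CPM and Serpinc1 at 8.65 CPM. Of the matrix and inhibitor genes, Itih2 and Itih3 (heavy chains of the inter-alpha-trypsin inhibitor) reached 144 and 107 CPM. Vtn (vitronectin) was highest in a library with few other liver transcripts: 201 CPM in WT1, against 169 CPM in KO6, and no count in KO1.

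Of the genes that are not secreted, Fabp1, the fatty acid-binding protein of hepatocytes, ranged from 0.609 to 62.3 CPM. Hnf4a, the nuclear receptor that controls many of the listed genes, was at 1.64, 5.84 and 25.9 CPM (lowest, median and highest) in KO. In WT, Hnf4a was at 0.910, 2.40, 23.7 and 1.13 CPM. KO6 and WT3 were thus the highest libraries for Hnf4a, and KO2 (11.1 CPM) exceeded KO5 (9.06 CPM).

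The proportions between the liver genes were next compared, as the ratio of each gene's CPM to that of Alb in the same library, a quantity that is not scaled for length. Apoa1, Afp and Kng1 kept the narrowest proportions. The ratio of Afp to Alb stayed between 0.942 (WT4) and 1.80 (KO3), while Alb itself varied 115-fold. That of Apoa1 stayed between 0.281 and 0.420, and that of Kng1 between 0.0751 and 0.138. The SD of the log2 ratio over the 10 libraries was 0.20 for Apoa1, 0.25 for Afp and 0.27 for Kng1, and was 2.25 for Vtn. In KO5, KO6 and WT3 alone, the ratios of most genes lay close together: Trf between 1.08 and 1.25, Hpx between 0.0337 and 0.0382, and Itih3 between 0.0493 and 0.0632. Over the other 7 libraries, Itih3 ranged from 0.0110 (WT4) to 0.517 (KO1). It had 16 counts in WT4 and 139 in KO1.

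Not every gene kept its proportion to Alb. As a description over the 10 libraries, the slope of a gene's log2 CPM on that of Alb had a median of 0.96 over 28 genes and was at least 0.9 for 19 of them. It was under 0.7 for 5 genes, namely Apoc3 (0.30), Serpinc1 (0.53), F10 (0.54), Hnf4a (0.60) and Itih3 (0.62). Apoc3 had 63 counts in all, 50 of them in KO5, so its slope depends on the prior count of 2. In KO1, the ratio to Alb was 0.528 for Serpinc1 and 0.401 for F10, against 0.0297 and 0.0347 in KO5. Hpx (1.36), Plg (1.33) and Ambp (1.29) had the steepest slopes. These rest in part on values near the floor: in KO1, Hpx and Plg had no count and Ambp had 1. Vtn departed upward in WT1 and had no count in KO1, where Alb had 269. Its ratio to Alb was 4.06 in WT1, against a median of 0.0898 over the libraries, and there it made up 36.2% of the summed level of the 30 genes. Itih2 was also high relative to Alb in the same library (0.418, against a median of 0.0718).

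The flat course of Serpinc1 was found in 2 of its transcripts, Serpinc1-201 and Serpinc1-203. Serpinc1-201 is 4970 bases long, and 59.2% of them lie on exons of Zbtb37, which is read from the opposite strand. This transcript was at 4.61 to 12.8 CPM in the 7 libraries with fewer liver transcripts and at 6.32 to 15.7 CPM in KO5, KO6 and WT3. Serpinc1-203, with fewer counts, was at 1.05 to 3.30 CPM in the 7 libraries and at 1.68 to 3.78 CPM in the 3. In contrast, Serpinc1-204 was at 0 to 16.5 CPM in the 7 libraries and at 19.6 to 49.3 CPM in the 3, and Serpinc1-205 at 0 to 10.5 CPM and 16.7 to 45.7 CPM. Of these 4 transcripts, only Serpinc1-201 has bases on exons of Zbtb37. SmartSeq2 libraries do not mark strand, so reads on the bases shared by Serpinc1-201 and Zbtb37 cannot be told apart. The level of Serpinc1 in the low libraries is therefore uncertain. Plg shares 11.3% of its exonic bases with Slc22a3 on the opposite strand. Overlaps of Ahsg, Apoh and Fgg with other annotated genes were 5.49% of exonic bases or less. The counts of Vtn in WT1 fell on Vtn-201, its main transcript (200 of 201 CPM).

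**Figure D2:**
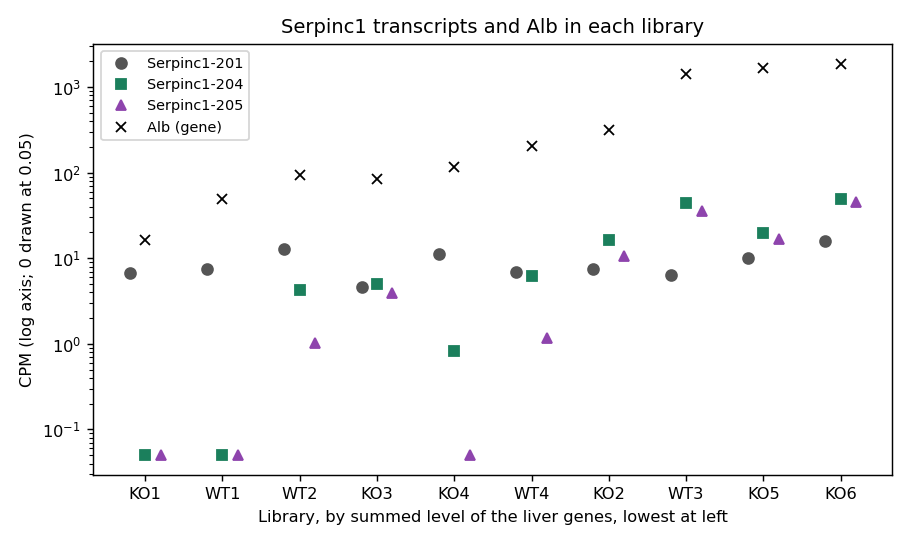
CPM (log axis, 0 drawn at 0.05) of 3 Serpinc1 transcripts and of the gene Alb in each library, ordered by summed level of the liver genes. Serpinc1-201 stays between 4.61 and 15.7 CPM, while Serpinc1-204 and Serpinc1-205 go from 0 in KO1 to 49.3 and 45.7 CPM in KO6, as Alb goes from 16.4 to 1882 CPM.

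Because KO5, KO6 and WT3 form a separate cluster, correlations of log2 CPM are given over the other 7 libraries, with two-sided exact permutation tests over all 5040 pairings and adjustment over 5 relations. Alb correlated with Apoa1 (Pearson's r = 0.99, p = 0.000397, adjusted p = 0.00198; Spearman's rho = 0.96, p = 0.00278, adjusted p = 0.00694). With Afp, r was 0.98 (exact permutation p = 0.000794, adjusted p = 0.00198) and rho 0.89 (p = 0.0123, adjusted p = 0.0154). With Ahsg, r was 0.95 (exact permutation p = 0.00139, adjusted p = 0.00231) and rho 0.96 (p = 0.00278, adjusted p = 0.00694). With Fgb, r was 0.89 (exact permutation p = 0.00694, adjusted p = 0.00868) and rho 0.89 (p = 0.0123, adjusted p = 0.0154). With Hnf4a, r was 0.36 (exact permutation p = 0.403, adjusted p = 0.403) and rho 0.14 (p = 0.783, adjusted p = 0.783). KO1 and KO2 were the libraries farthest from the median of Alb. Without both, r over 5 libraries was 0.96 for Apoa1, 0.89 for Afp, 0.76 for Ahsg, 0.48 for Fgb and 0.11 for Hnf4a, so that the relation with Fgb rested on those 2 libraries. All values of a library share its depth and scaling. The genes were chosen with earlier results of these data known, and the 7 libraries by the summed level of the same genes. These p-values are thus no independent evidence that the genes vary together. As a description, the median rho with Alb over the 7 libraries was 0.88 for the 27 other liver genes with enough counts and -0.036 for all 13209 genes with at least 10 counts in 5 libraries.

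The 10 other genes whose pattern was most like the summed level of the 30, by Spearman's rho over the 10 libraries, had rho from 0.988 to 0.939 and included Apom, Serpina1a, Serpina10, Ftcd, Serpina1e, Spink1, Aadac and Echdc3. Apom, an apolipoprotein, was at 2.25 to 27.5 CPM in the 7 libraries and at 99.9 to 197 CPM in KO5, KO6 and WT3. Serpina1a, an alpha-1-antitrypsin gene with near-identical copies, was at 2.25 to 32.7 CPM and 129 to 174 CPM. Of the 10, 5 were on the lists of other liver genes described next.

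Other liver genes were read from 4 further lists. Of 48 other secreted liver proteins, 43 were tested, and none passed an adjusted p of 0.1 in either direction, with 2 (F5 and F9) at an unadjusted p under 0.05 by edgeR. Over all genes tested, 3.99% passed and 18.8% were at that unadjusted p, the background for each list below too. The median log2 fold change of the 43 was 0.64, beside 0.06 over all genes tested. For 35 of the 43 (81.4%), KO5, KO6 and WT3 were the 3 highest libraries. Serpina1b, Serpinf2 and Serpina1a were the most abundant. Their summed level was 57.4 to 397 CPM in the 7 libraries and 1482 to 2281 CPM in the 3. Of the 14 hepatocyte enzymes tested, none passed (1 at an unadjusted p under 0.05 by edgeR), the median log2 fold change was 0.12, and 6 had the same 3 libraries highest. Among these enzymes, Asl (33.0 to 69.5 CPM in the 7 libraries against 65.9 to 90.3 CPM in the 3) and Ass1 (12.1 to 121 CPM against 45.2 to 73.9 CPM), enzymes of arginine synthesis found in many cells, overlapped between the 7 and the 3. Of 8 hepatoblast surface and cytoskeleton genes none passed (0 at an unadjusted p under 0.05 by edgeR), the median was 0.87, and the keratins Krt8 and Krt18 had the same 3 libraries highest. Dlk1, a surface protein of hepatoblasts, was at 1.52 to 45.7 CPM in the 7 libraries and at 34.2 to 73.5 CPM in the 3. Of 16 liver nuclear factors none passed (0 at an unadjusted p under 0.05 by edgeR), and the median was 0.23. Nr2f2, Rxra and Nr5a2, the most abundant of them, were not highest in the 3 libraries (Nr2f2 8.34 to 163 CPM against 15.2 to 61.8 CPM), whereas Onecut1 and Onecut2 were.

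Genes of some other cell types varied along with the liver genes. The summed level of 9 neutrophil genes was 6.07 to 212 CPM in the 7 libraries and 408 to 2163 CPM in KO5, KO6 and WT3. Of the 9, 7 had these libraries highest, against 2.45% of all genes tested. S100a8 and Mpo were among the 7, but Mpo was at 60.0 CPM in both KO6 and KO4. Of 7 erythroblast genes, 3 had these libraries highest, Slc4a1 and Alas2 among them, and the summed level of the 7 genes was 218 to 1419 CPM against 1093 to 6265 CPM. The others did not: Klf1 was at 62.7 to 747 CPM in the 7 libraries against 110 to 777 CPM in the 3, and Epor at 43.4 to 161 CPM against 65.9 to 163 CPM. By contrast, the summed level of 12 sinusoidal endothelial genes such as Stab2, Lyve1 and Oit3 was 238 to 10688 CPM in the 7 libraries and 1411 to 5805 CPM in the 3. Those of 14 macrophage genes (136 to 976 CPM against 457 to 876 CPM), 10 stellate and mesenchymal genes (17.8 to 288 CPM against 49.0 to 174 CPM) and 6 megakaryocyte genes (221 to 2463 CPM against 640 to 3450 CPM) overlapped as well. Mrc1, Lyz2 and Vcam1 led the macrophage list, Dcn, Col1a2 and Col1a1 the mesenchymal list, and Pf4, Ppbp and Itga2b the megakaryocyte list. The largest part of the macrophage sum was Mrc1 (3.11 to 714 CPM in the 7 libraries against 65.4 to 271 CPM in the 3). Of the 14 macrophage genes, 1 had the 3 libraries highest, namely Cd5l (0 to 1.15 CPM against 1.78 to 25.4 CPM). Csf1r was at 5.25 to 32.7 CPM against 27.3 to 76.2 CPM. Adgre1 was at 11.8 CPM in KO5 and 40.7 CPM in WT3, but at 0.197 CPM in KO6. Among the genes of these other cell types, Epor (log2 fold change -0.999 ± 0.276 SE, adjusted p = 0.0937) and Marco (no count in KO, 6.88 ± 4.99 CPM in WT, SD, n = 4, adjusted p = 0.0824) were lower in KO by edgeR, where 2.67% of all genes tested were called lower. Whether cells of these types have a part in the liver gene levels was not tested.

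**Figure D3:**
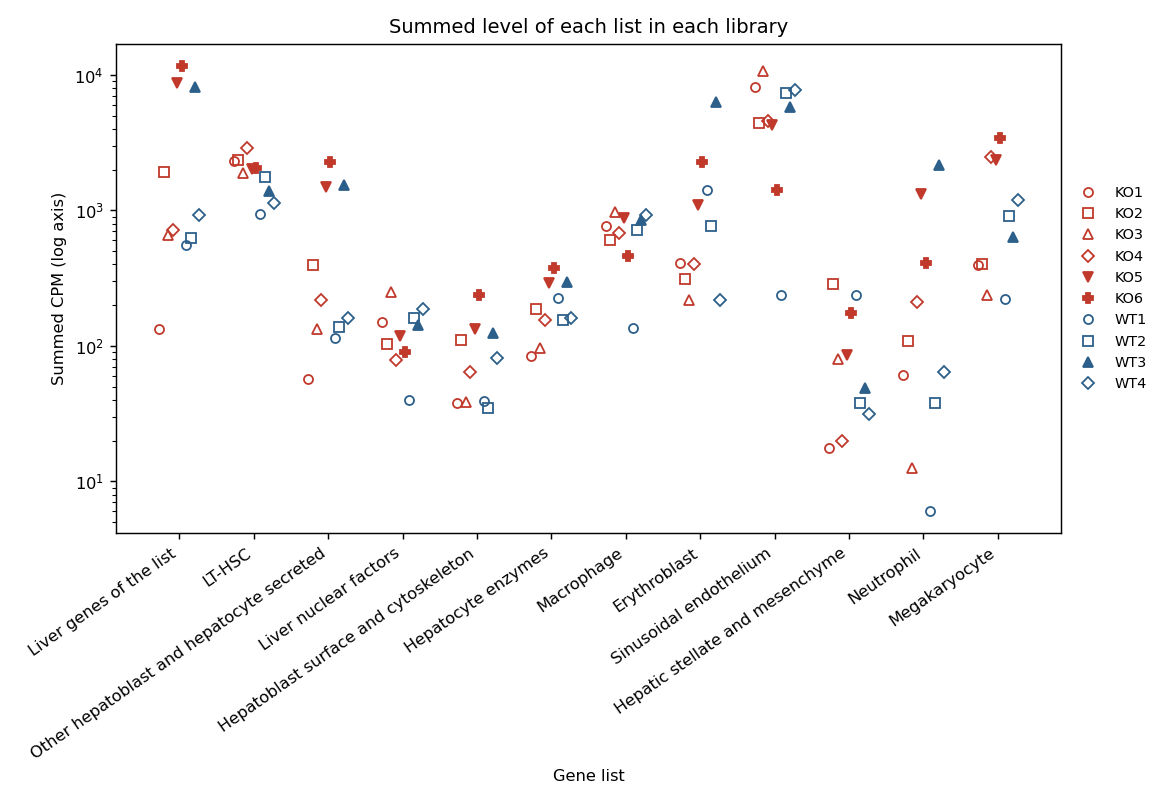
Summed CPM (log axis) of the 30 liver genes and of 11 other gene lists in each library, with KO red, WT blue and KO5, KO6 and WT3 filled. The filled symbols are the 3 highest for the liver genes, the other secreted liver proteins, the hepatocyte enzymes, the hepatoblast genes and the neutrophil genes.

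Between genotypes, none of the 29 liver genes tested was higher or lower in KO at an adjusted p of 0.1 (edgeR's quasi-likelihood test, Benjamini-Hochberg over 16725 genes), where 3.99% of all genes tested were called, 221 higher (1.32%) and 446 lower (2.67%). These background calls were 585 higher and 551 lower by DESeq2 when tested against an absolute log2 change of 0.1, 51 and 449 with an offset for transcript length, 405 and 598 without KO3, 1 and 0 without KO4, and 0 in both directions without KO1, KO2, KO5, KO6 or WT1. At an unadjusted p under 0.05 there was 1 liver gene, Apoc3, against 18.8% of all genes. DESeq2 called none of them either, with or without that threshold, where it called 6.79% and 12.8% of all genes. For none of the 29 did the KO and WT libraries separate without overlap, which they did for 6.36% of all genes tested. The fitted log2 fold change was above 0 for 28 of the 29, with a median of 0.63 (0.06 over all genes). These genes were measured in the same libraries and are not independent of one another.

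The standard errors were wide, with a median of 1.33 on the log2 scale against 0.47 over all genes tested. Alb had a log2 fold change of 0.63 (95% interval -2.32 to 3.59, adjusted p = 0.843) and Afp one of 0.78 (-2.13 to 3.69, adjusted p = 0.801) by edgeR. These intervals hold both a 4-fold decrease and a 4-fold increase, so that a difference of that size in either direction is not excluded by these libraries. The narrowest estimates were those of Serpinc1 (0.28 ± 0.78 SE) and F10 (0.19 ± 0.79 SE), whose levels varied least between libraries. Vtn was the gene below 0 (-0.72 ± 1.36 SE, adjusted p = 0.824 by edgeR), with its highest value in WT1. Apoc3 had the smallest adjusted p (log2 fold change 3.80 ± 1.49 SE, adjusted p = 0.196 by edgeR), but rested on 63 counts. The ratio of its KO to WT counts, scaled for depth, was 25.2, with an exact counting interval of 4.36 to 1012 that leaves out the spread between libraries. All other adjusted p values were at least 0.661.

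Leaving out KO5, KO6 and WT3 left 4 KO and 3 WT libraries and 28 liver genes to test. None was called, 0 were at an unadjusted p under 0.05, and the smallest adjusted p was 0.32 (edgeR, Benjamini-Hochberg). The median log2 fold change was 0.46 (0.10 over all genes), with 23 genes above 0 and 5 below. Apoh, F10, Kng1 and Itih2 then had values below 0, while Vtn went to -2.80 ± 1.37 SE and Plg to 3.36 ± 1.65 SE. Over all genes tested, no gene was called without these 3 libraries (1266 higher and 1532 lower at an unadjusted p under 0.05), nor when the log2 summed level of the 30 liver genes was added to the fit as a covariate (1343 and 1700).

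**Figure D4:**
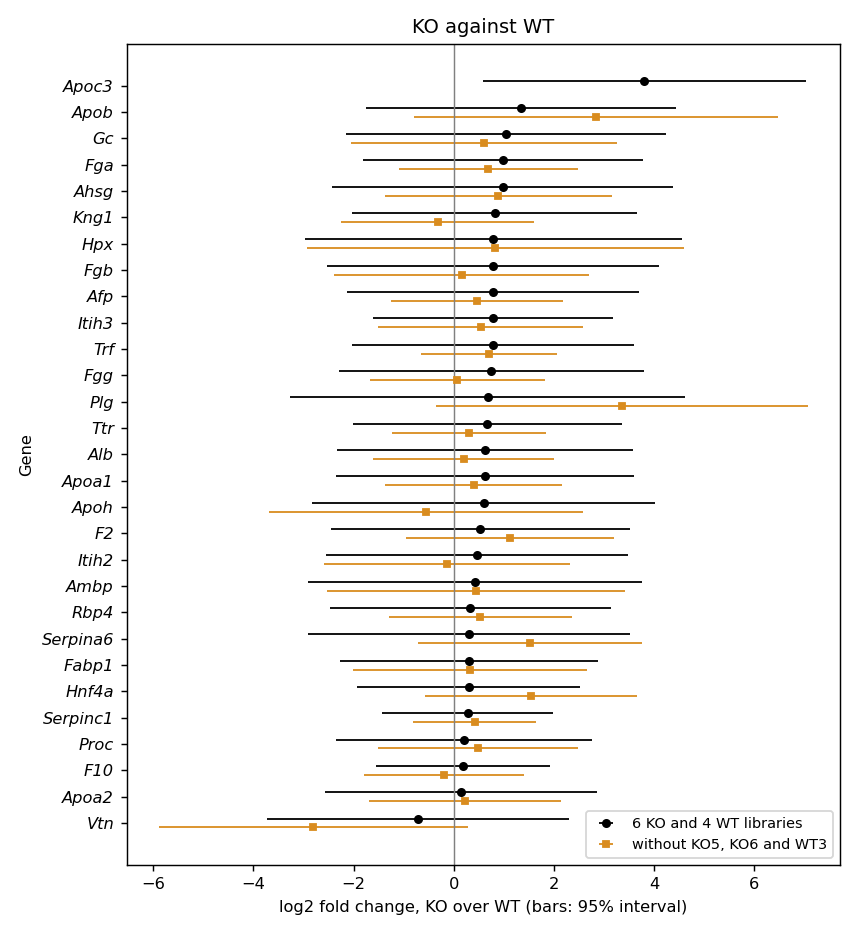
Log2 fold change, KO over WT, of 29 liver genes with 95% intervals from all 10 libraries (black) and without KO5, KO6 and WT3 (orange; Apoc3 was then not tested). All intervals but that of Apoc3 with 10 libraries include 0, and the orange points keep a median of 0.46.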

How the data were processed

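RNA of LT-HSCs sorted from fetal liver was amplified by SmartSeq2, which copies polyadenylated RNA along its length without marking strand, and sequenced as single-end reads. The authors estimated reads per transcript with kallisto 0.44.0 on Gencode vM16 (GRCm38), after demultiplexing with bcl2fastq 2.20, per the labels. They deposited, for each library, estimated counts and TPM per transcript, and 1 gene table, in which the estimated counts of each symbol's transcripts are added up and rounded, with no scaling. Reads carry no molecular identifiers, so counting intervals and floors cover counting error only.

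Genes whose counts summed to 11 or more over the libraries were fitted with edgeR 4.0.16 in R 4.3.3 (TMM, robust quasi-likelihood test), with Benjamini-Hochberg adjustment over all genes and a threshold of 0.1, that of the study. Standard errors were taken from the F statistic. DESeq2 1.42.0 was an alternative. In simulated libraries with 16725 genes, edgeR recovered 83 of 100 genes changed by 2 on the log2 scale and 97 of 100 changed by 4. The changed genes were drawn from all well-counted genes. These shares do not apply to the liver genes, whose median standard error was 1.33 against 0.47 over all genes tested. Correlations used log2 CPM with a prior count of 2. They were planned over all 10 libraries and are given over 7, since the libraries form clusters. Transcripts, lengths and positions are from Gencode vM21 on the same build. Symbols of 16620 of 17404 genes matched it. The 30 genes and all lists were chosen with earlier results of these data known. Named are all 30 genes, the 3 most abundant genes of each list with those past the threshold, and genes most like the summed level, of which some are not reported here. Other genes of the lists (F5, F9, Krt8, Krt18, Onecut1, Onecut2, Alas2, S100a8 and others) were named after their values were seen. Of the erythroblast list, 7 of 12 symbols matched rows of the table, and the others were not analysed here. No per-sample column was left unassigned. Tables and figures were made with Python, pandas and matplotlib.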

Additional observations from a re-analysis of the deposited data

Results flagged for a closer look

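Values on the log2 CPM scale were screened within each genotype for a single library far from the rest, by Dixon's ratio of the gap to the whole range. Of 58 groups of values, 4 passed the 95% critical value (6.9%). Chance alone gives about 1 in 20 for independent groups. These groups come from the same libraries and are not independent, so that rate is only a rough background. Trf in WT had a ratio of 0.948, with 1568 CPM in WT3 against 103 to 119 CPM in the other WT libraries. Fgg in WT had a ratio of 0.905, with 105 CPM in WT3 against 6.67 to 8.70 CPM in the others. Apoc3 in KO had a ratio of 0.656, with 50 counts in KO5. In WT, Apoc3 had a ratio of 1, which rests on a single count in WT3 and none in the other 3 libraries.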

How the results depend on the processing

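The count of called liver genes stayed at 0 in both directions under every alternative tried, with or without any 1 library. Over all genes, the 221 higher and 446 lower calls moved widely. DESeq2 gave 585 higher with a fold-change threshold and 998 higher with 1145 lower without one, a loess offset on transcript length gave 51 higher (the median log2 fold change of all genes went from 0.06 to -0.13), and an adjusted p below 0.05, the removal of KO5, KO6 and WT3 or the covariate gave 0 and 0. Leaving out 1 library gave 0 to 405 higher and 0 to 598 lower: both were 0 without KO1, KO2, KO5, KO6 or WT1, and 1 higher gene was left without KO4. At an unadjusted p under 0.05, the same leave-one-out fits gave 1071 to 1696 higher and 1316 to 1783 lower. Of the other liver genes, DESeq2 called 1 (F9) or 2 (F5 and F9) higher, and 0 to 2 were higher with 1 library left out (Cpb2 and Hgfac without WT3). The KO minus WT difference of the log2 summed level ranged from -0.33 to 1.15 with 1 library left out, and was 0.62 with TPM. The cause of these shifts was not tested.

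The sign of the fitted fold change of single liver genes was not stable. Without KO5, KO6 and WT3 it was -0.55 for Apoh, -0.19 for F10, -0.32 for Kng1 and -0.13 for Itih2, and the length offset gave -0.0018 for F10. With 1 library left out, values ranged from -0.60 to 2.48 for Rbp4, -0.45 to 3.45 for Serpina6, -0.29 to 2.62 for Ambp, -0.19 to 2.77 for Apoa1, -0.66 to 2.04 for Apoa2, -0.096 to 2.36 for Apoh, -0.062 to 2.83 for Fgb, -0.017 to 2.89 for Fgg, -0.26 to 3.17 for F2, -0.29 to 0.98 for F10, -0.20 to 5.66 for Plg, -0.64 to 2.60 for Proc, -0.38 to 1.49 for Serpinc1, -1.64 to 0.21 for Vtn, -0.31 to 2.12 for Itih2, -0.40 to 2.06 for Fabp1 and -0.43 to 2.58 for Hnf4a. The correlation of Alb with Fgb ranged from 0.69 to 0.96 and lost its call without KO1 (adjusted p = 0.126, exact permutation), and that with Hnf4a ranged from -0.41 to 0.69. The alternative of KO libraries alone was not run for the correlations, because they fall into both clusters. No paired analysis was possible because the labels give no replicate numbers shared between the groups. Depth limits the genes with few counts, chiefly Apoc3, Apob and Plg in the 7 lower libraries.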

Other observations

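Transcript estimates of other liver genes were also read by library. The counts of Itih3 fell on Itih3-201 (1.67 to 25.1 CPM in the 7 libraries with fewer liver transcripts, 42.0 to 89.2 CPM in KO5, KO6 and WT3) and on Itih3-204, a transcript with a retained intron (0 to 6.53 CPM and 16.9 to 30.1 CPM). F10 was divided among F10-205 (2.17 to 17.3 CPM and 28.6 to 55.9 CPM), F10-202 (1.495 to 12.7 CPM and 5.76 to 15.7 CPM) and F10-201, so that F10-202 and F10-201 overlapped between these libraries and F10-205 did not. Apob counts were divided between Apob-202, which has 13934 bases, and Apob-203, which has 2174, and its low TPM depends on that division. Hnf4a was split between Hnf4a-201 and Hnf4a-202, whose lengths are 4356 and 4362 bases.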
